A study of Capra hircus with 6 samples.

Results

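Complement is a cascade of plasma proteins and cell surface receptors that marks microbes and dying cells for uptake, recruits leukocytes and can lyse membranes. Its classical pathway starts when C1q binds an antibody or another ligand and activates the proteases C1r and C1s, and its alternative pathway is amplified by factor B and stabilised by properdin. Most soluble components are made in the liver, but macrophages, monocytes and dendritic cells are a known source of C1q, and monocytes and neutrophils of properdin. The 10 genes described here encode the 3 chains of C1q (C1QA, C1QB, C1QC), the C1 inhibitor SERPING1, the protease C2, factor B (CFB), properdin (CFP), the anaphylatoxin receptors C5AR1 and C3AR1, and VSIG4, a macrophage receptor for C3 fragments. They were chosen by gene symbol, with earlier results of these data known. All 10 were found among the 24779 genes of the count table.

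The counts came from peripheral blood mononuclear cells (PBMC), which are blood lymphocytes with fewer monocytes and dendritic cells, of goat kids (Capra hircus). The design asks which genes these cells expressed differently in kids raised on their does' milk (control, 3 libraries) and in kids raised on a milk replacer (test, 3 libraries). The libraries are labelled as biological replicates. The doe-milk libraries are called D1, D2 and D3 and the replacer-milk libraries R1, R2 and R3. The sources used here do not give the kids' age, breed or sex, the length of feeding or the make-up of the replacer.

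The 6 libraries were of 2 kinds that cross the feeds. D1, D2 and R1 held blood cell transcripts. The MHC class I light chain B2M stood at 8383 to 10105 CPM in them, CPM being counts scaled to a common library total. The T cell gene CD3E stood at 405 to 490 CPM, the B cell gene MS4A1 at 445 to 465 CPM and the monocyte gene CD14 at 101 to 137 CPM. In D3, R2 and R3 the same genes were low, with B2M at 2.99 to 4.88 CPM, CD3E at 13.3 to 23.3 CPM and CD14 at 8.69 to 10.9 CPM. There, counts followed the length of the gene, introns included (Spearman correlation of count with span across genes 0.892 to 0.896, against 0.370 to 0.383). The first 3 are called transcript-like and the other 3 span-proportional. Totals ran from 48063350 to 57204363 counts in the transcript-like libraries and from 25023210 to 27129143 in the others. R2 and R3 were nearly alike, with a chi-square over degrees of freedom of 2.73 against 77.2 to 346 for other same-kind pairs. They were kept as 2 samples, as labelled. Between the feeds, D1 and D2 were therefore compared with R1, and the span-proportional libraries are described apart.

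No complement gene among the 10 passed the test between the feeds in the transcript-like libraries. In edgeR's quasi-likelihood test with Benjamini-Hochberg adjustment over 17356 genes, all 10 were tested and 0 were called (adjusted p from 0.800 to 0.995), against a background of 0.0173% of genes. DESeq2 and limma voom also called 0 of the 10, with no adjusted p from DESeq2 for C2 and CFB. One member, C5AR1, had an unadjusted edgeR p below 0.05, where 5.35% of all genes had one. The median log2 fold change of the 10 was −0.72, replacer milk minus doe milk, against −0.0057 over all genes tested. Because the 10 were chosen with earlier results known, contrasts with all genes do not test them as a set. The replacer-milk side is a single library, assumed in the fit to vary like the doe-milk side, and the fit has 1 residual degree of freedom.

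R1 did not lie on one side of the controls for every member. In CPM, R1 lay below both doe-milk libraries for 6 of the 10 (C1QA, C1QB, C1QC, C2, C5AR1 and VSIG4), where 23.8% of all genes tested did. It lay above both for 2 (CFB and CFP), where 46.9% of all genes did, and between them for 2 (C3AR1 and SERPING1). CPM from raw totals set the replacer-milk library higher for the median gene by 0.11 on the log2 scale than TMM scaling did. On the TMM scale 7 lay below both, with 33.2% of all genes, and 1 above both, with 34.4%. C3AR1 then moved below both and CFP between them. For C1QC, C2 and VSIG4 the exact 95% binomial intervals of R1 and D2 overlap, so R1 and D2 were not separated beyond counting error. Of the 2 above both in CPM, the R1 interval overlaps that of D2 for CFB and that of D1 for CFP. Against 1 control at a time, 7 of the 10 lay below D1 in CPM, with 40.1% of all genes, and 7 below D2, with 36.8%.

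**Figure D1:**
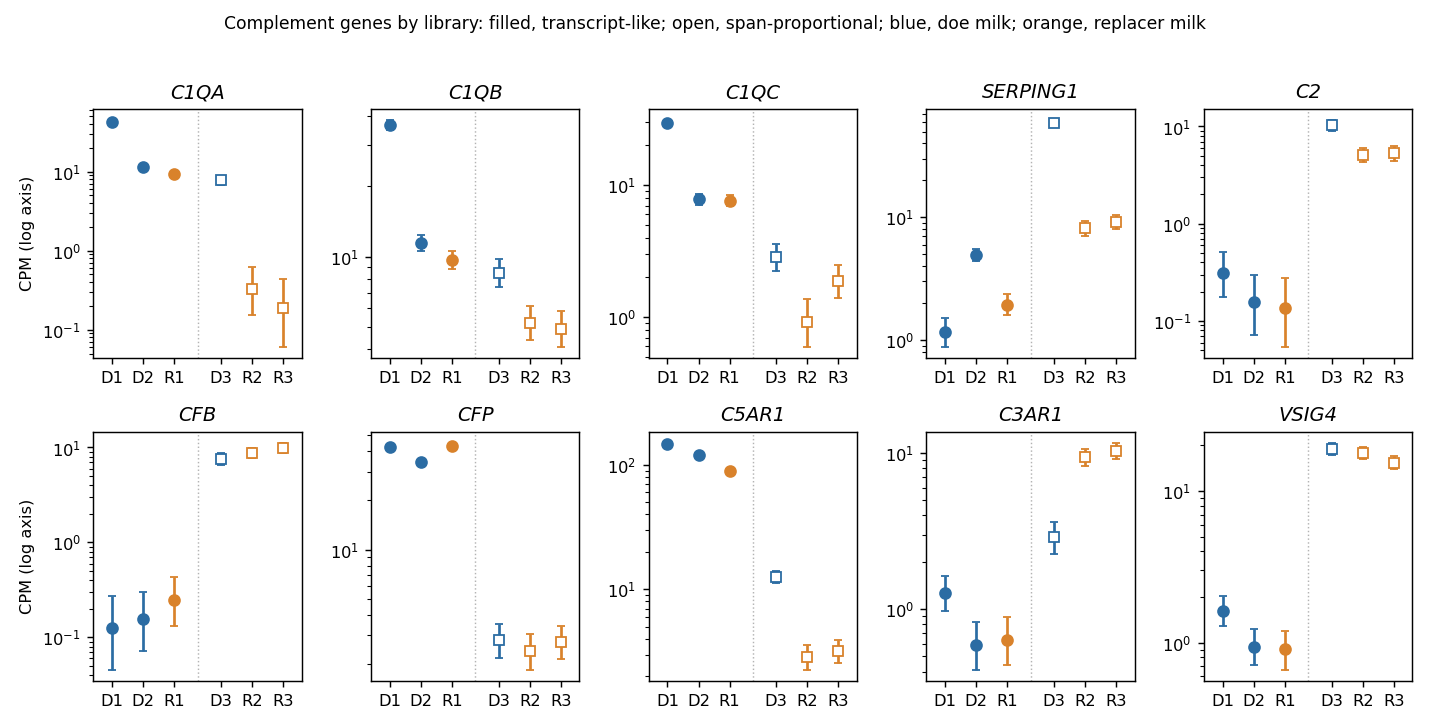
CPM of each complement gene (log axis) in the doe-milk libraries (D1 to D3, blue) and the replacer-milk libraries (R1 to R3, orange), transcript-like libraries filled and span-proportional ones open. Bars are exact 95% binomial intervals, which cover counting error only. C1QA, C1QB and C1QC were highest in D1 and lay close together in D2 and R1, while C2, CFB, C3AR1, SERPING1 and VSIG4 had more CPM in every span-proportional library than in any transcript-like one.

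C1q, the recognition unit of the classical pathway, is built from equal numbers of its A, B and C chains, whose genes are neighbours in the goat assembly ARS1.2. C1QA stood at 42.9 CPM in D1, 11.5 CPM in D2 and 9.21 CPM in R1. C1QB stood at 36.7, 11.4 and 9.67 CPM in the same order. C1QC stood at 29.4, 7.80 and 7.63 CPM. For each chain D1 lay far above the other 2, which were close to each other. The control libraries thus differed from one another by 3.73-fold for C1QA, 3.21-fold for C1QB and 3.77-fold for C1QC. A gap of at least 3-fold in that direction was seen in 3.04% of all genes tested. D2 exceeded R1 by only 1.25-fold, 1.18-fold and 1.02-fold, which is less than the spread between the controls.

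The fitted log2 fold changes of the chains rested on D1. With both controls they were −1.67 for C1QA (SE 1.17, edgeR adjusted p = 0.979), −1.42 for C1QB (SE 0.96) and −1.39 for C1QC (SE 1.11), the last 2 with the same adjusted p. Against D2 alone they were −0.44, −0.36 and −0.15, and against D1 alone −2.33, −2.03 and −2.05. Neither 1-against-1 value has a test.

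The 3 chains kept similar proportions while their level varied. Of the counts summed over the chains, C1QA took 39.3% in D1 (95% Wilson interval 38.0 to 40.7, of 5240 counts), 37.4% in D2 (35.2 to 39.7, of 1758) and 34.7% in R1 (32.3 to 37.3, of 1376). C1QB took 33.7%, 37.2% and 36.5% and C1QC 27.0%, 25.4% and 28.8%. The shares therefore moved by a few percentage points while the summed level went from 109 to 30.7 and 26.5 CPM. Among genes with counts from 2 to 9, an even number was found for 61.2% to 66.9% per library, so counts may not be single independent reads and these intervals, which cover counting error only, may be too narrow.

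**Figure D2:**
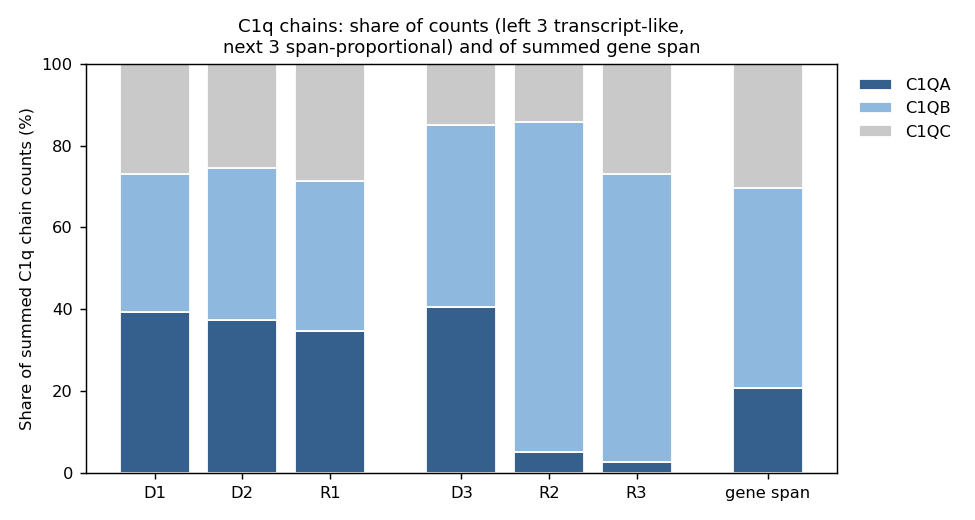
Share of the summed C1q chain counts (%) taken by C1QA, C1QB and C1QC in each library, with the shares of the chains in their summed gene span at the right. In the transcript-like libraries C1QA took 34.7% to 39.3%, while in R2 and R3 it took 5.14% and 2.69% and C1QB took 80.6% and 70.4%.

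The summed level of tissue macrophage markers did not follow the chains. Of 11 macrophage genes in the table, 7 stayed under 1 CPM in every transcript-like library, among them TIMD4, MARCO, FOLR2 and CD5L. CD5L had 0 counts in D1, which allows up to 0.0624 CPM (3 counts). The summed level of the 11 was 44.4 and 52.9 CPM in D1 and D2 and 65.1 CPM in R1, lowest where C1q was highest. Most of that sum came from MRC1 (28.9, 38.0 and 43.5 CPM) and MSR1 (10.7, 9.09 and 13.4 CPM). Of the 11, 8 lay above both doe-milk libraries in R1, where 46.9% of all genes tested did. The summed level of 8 monocyte genes was 1058, 975 and 1137 CPM, and 0 of the 8 lay below both doe-milk libraries in replacer milk. Of 8 dendritic cell genes in the table, 6 were highest in D1, although their summed level was 233, 184 and 259 CPM. FCER1A, a chain of the IgE receptor, stood at 37.0, 6.07 and 7.11 CPM and the transcription factor BATF3 at 31.8, 9.23 and 11.5 CPM, both with D1 far above D2 and R1 as for the chains. IRF8 and TCF4 were not highest in D1, at 68.2, 65.5 and 134 CPM and at 81.4, 96.8 and 97.9 CPM. The summed level of 12 neutrophil genes was 866, 477 and 327 CPM, and 8 of the 12 were highest in D1. Of the 8 monocyte genes 3 were highest in D1, of the 11 macrophage genes 2 and of 10 T cell genes 3. The share of all genes that were highest in D1 was not computed, so these counts have no background. The 4 dendritic cell genes were named with their values known, and the part of dendritic cell or neutrophil genes in the C1q values was not tested. In RNA of mixed cells, fewer cells of a type and less RNA per cell cannot be told apart.

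SERPING1, the inhibitor that removes C1r and C1s from C1 and also restrains the lectin pathway, varied in another order than C1q. It stood at 1.17 CPM in D1, 4.95 CPM in D2 and 1.95 CPM in R1. The replacer-milk library lay between the controls, which differed from each other by 4.25-fold. The log2 fold change was −0.77 (SE 0.99, edgeR adjusted p = 0.979), and it was −1.45 against D2 alone but 0.61 against D1 alone. SERPING1 is known as an interferon-inducible gene. Of 23 other interferon response genes in the table, 22 lay below both doe-milk libraries in replacer milk, where 23.8% of all genes tested did. Their summed level was 3908, 3685 and 2163 CPM in D1, D2 and R1. The part of interferon in the SERPING1 values was not tested.

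C2 and CFB, which encode the homologous proteases of the classical and alternative pathway convertases and lie side by side in the ARS1.2 assembly, were near the limit of detection in the transcript-like libraries. C2 had 15, 9 and 7 counts in D1, D2 and R1, which is 0.312 CPM (exact 95% binomial interval 0.175 to 0.515), 0.157 CPM (0.0719 to 0.299) and 0.135 CPM (0.0542 to 0.278). CFB had 6, 9 and 13 counts, or 0.125 CPM (0.0458 to 0.272), 0.157 CPM (0.0719 to 0.299) and 0.251 CPM (0.133 to 0.428). The intervals of the 3 libraries overlap for both genes, so no difference between the libraries was detectable at this depth. The fitted log2 fold changes were −0.88 (SE 1.02) and 0.70 (SE 0.93), both with an edgeR adjusted p of 0.979. Both proteases are mainly liver products, and both genes are known to be induced in myeloid cells during inflammation.

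CFP, the properdin gene of the X chromosome, stood at similar levels under both feeds. It stood at 42.7 and 34.5 CPM in D1 and D2 and at 43.1 CPM in R1. The replacer-milk value lay next to D1 on the CPM scale. The log2 fold change was 0.049 (SE 0.23, edgeR adjusted p = 0.995), with values of 0.20 against D2 alone and −0.099 against D1 alone. CFP had one of the smallest standard errors among the members, next to C5AR1. CFD, the factor D gene whose product cleaves factor B, stood at 21.9, 6.22 and 13.1 CPM, with replacer milk between the controls. CFD was named after its values were seen.

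C5AR1, the receptor for the anaphylatoxin C5a on neutrophils and monocytes, was the member with the smallest p. It had 146 and 119.6 CPM in D1 and D2 and 89.7 CPM in R1. The replacer-milk library lay below both controls, which differed by 1.22-fold, while D2 exceeded it by 1.33-fold. The log2 fold change was −0.68 (SE 0.22, edgeR unadjusted p = 0.0212, adjusted p = 0.800), with −0.82 against D1 alone and −0.53 against D2 alone. Over the other settings its adjusted p ran from 0.392 to 0.829, so it did not pass in any of them. C5AR2, the neighbouring gene for the second C5a receptor, which is not coupled to G proteins, stood at 58.2, 26.8 and 12.2 CPM. The ratio of C5AR1 to C5AR2 counts was 2.51, 4.46 and 7.35 in the same libraries, so the pair did not keep a fixed ratio.

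Of the 12 neutrophil genes in the table, 7 lay below both doe-milk libraries in R1, as both C5a receptor genes did, 2 lay above both and 3 between them. Among all genes tested, 23.8% lay below both and 46.9% above both. CXCR2 stood at 163, 58.8 and 16.6 CPM, CSF3R at 249, 117 and 70.2 CPM, and the chemokine receptor CXCR1 at 119, 28.8 and 3.89 CPM in D1, D2 and R1. LTF, the granule protein lactoferrin, lay above both controls at 3.16, 7.62 and 10.1 CPM, and S100A8 lay between the controls at 106, 85.9 and 104 CPM. The monocyte gene CD14 lay above both controls, at 120.5, 101 and 137 CPM. The part of neutrophil carry-over in the C5AR1 values was not tested.

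C3AR1, the receptor for the anaphylatoxin C3a, was low and highest in D1. It stood at 1.27 and 0.594 CPM in D1 and D2 and at 0.636 CPM in R1, from 61, 34 and 33 counts. Its replacer-milk value was next to that of D2, above it in CPM and below it after TMM scaling. VSIG4, an X-linked gene whose protein takes up C3b-coated particles in liver macrophages, stood at 1.62, 0.944 and 0.906 CPM. D1 was again the highest. The log2 fold changes were −0.65 (SE 0.70) for C3AR1 and −0.61 (SE 0.61) for VSIG4, both with an edgeR adjusted p of 0.979. Against D2 alone they were −0.019 and −0.17.

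**Figure D3:**
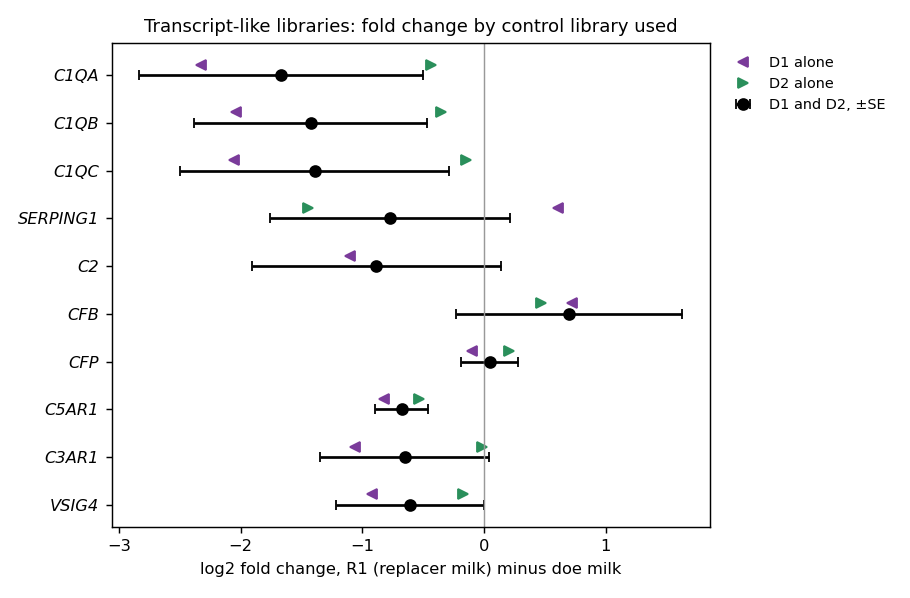
Log2 fold change of each complement gene in R1 against D1 and D2 together (black points, bars ± SE from edgeR), against D1 alone (left-pointing) and against D2 alone (right-pointing, not given for C2, which did not pass the filter there). C1QA ran from −2.33 to −0.44 with the control used and SERPING1 from −1.45 to 0.61, while C5AR1 stayed between −0.82 and −0.53.

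Of 39 further complement genes in the table, 31 were tested and 0 passed in edgeR with the filter on low counts (smallest adjusted p = 0.261). Their fold changes were negative for 20 and positive for 11, with a median log2 fold change of −0.18 against −0.0057 over all genes. Of the 31, 13 lay below both doe-milk libraries in CPM and 10 above both, where 23.8% and 46.9% of all genes tested did. An unadjusted edgeR p below 0.05 was reached by 6, against 5.35% of all genes tested. Of these 6, 5 were lower in replacer milk.

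The one of these 6 that was higher in replacer milk was CR2, the B cell receptor for C3d. CR2 stood at 6.87 and 5.56 CPM in D1 and D2 and at 25.7 CPM in R1, a log2 fold change of 1.94 (SE 0.26, edgeR adjusted p = 0.261). The controls were close and the replacer-milk value lay above both. CR2 passed in DESeq2 (adjusted p = 0.000132) and in edgeR with no filter on low counts (adjusted p = 0.00244), and over all settings its adjusted p reached 0.416. The summed level of 10 B cell genes was 2433 and 2356 CPM against 2706 CPM. In R1, 6 of these 10 exceeded D1 and D2 alike in CPM, next to a share of 46.9% for the tested genes as a whole. The part of the B cell genes in the CR2 value was not tested.

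PTX3, the pentraxin that binds C1q and microbes, had the next smallest p. It was at 203 CPM in D1, 248 CPM in D2 and 89.5 CPM in R1, a log2 fold change of −1.44 (SE 0.23, edgeR adjusted p = 0.328). It passed in DESeq2 (adjusted p = 0.000153) and with no filter (adjusted p = 0.00498), and over all settings its adjusted p reached 0.44. C5AR2 had a log2 fold change of −1.91 (SE 0.59, edgeR adjusted p = 0.891) and passed in DESeq2 alone (adjusted p = 0.00353).

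The membrane regulators CD55 and CD59, which protect host cells from complement, and the protease gene C1R lay below both controls in replacer milk. CD55, which speeds the decay of convertases, stood at 129 and 165 against 83.8 CPM, with a log2 fold change of −0.92 (SE 0.24, edgeR adjusted p = 0.676). CD59, which blocks the membrane attack complex, stood at 306 and 230 against 159 CPM, the first value of each pair being D1 (−0.87, SE 0.24, edgeR adjusted p = 0.725). C1R, the C1 protease, stood at 19.2 and 18.8 against 11.7 CPM (−0.81, SE 0.24, edgeR adjusted p = 0.746). For each of the 3 genes the ratio between the controls was smaller than the ratio of the nearer control to R1. The 3 genes were named for a small p in these same libraries. That choice favours such a pattern, so it is no separate support.

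The remaining genes of the 10 with the smallest p had an unadjusted p above 0.05. C1QBP, a mainly mitochondrial protein that also binds C1q, stood at 59.4 and 75.1 against 49.9 CPM. FCN1, the ficolin of monocytes that starts the lectin pathway and is itself one of the monocyte genes counted above, stood at 255 and 267 against 358 CPM. CFI, the protease that inactivates C3b, stood at 1.87 and 3.71 against 1.503 CPM, and COLEC10 had 4 and 17 counts against 1 count. Only FCN1 lay above both controls among these 4.

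**Figure D4:**
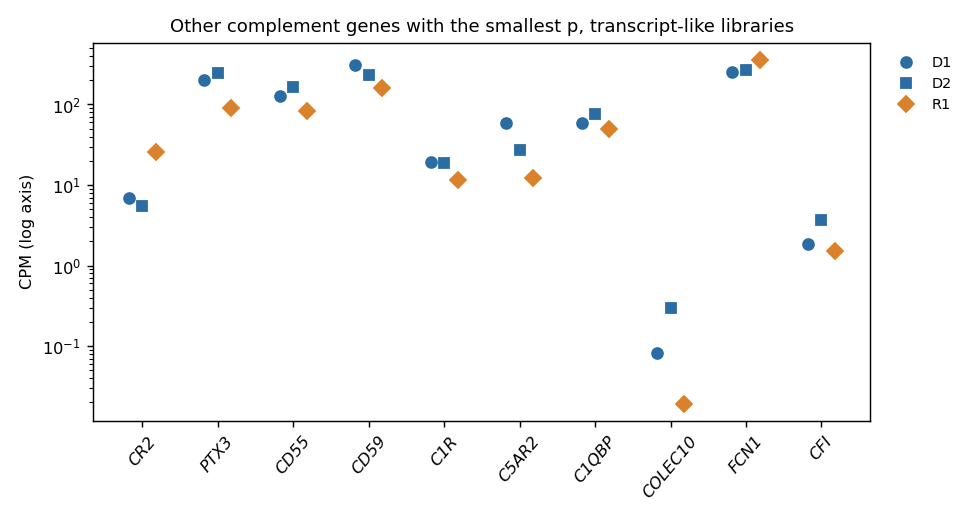
CPM (log axis) of the 10 further complement genes with the smallest p, in D1 and D2 (blue) and R1 (orange). CR2 and FCN1 lay above both doe-milk libraries in replacer milk and the other 8 below both.

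The members divided evenly between those with more and those with less CPM in the span-proportional libraries. C1QA, C1QB, C1QC, CFP and C5AR1 were higher in all 3 transcript-like libraries than in any span-proportional one, and C2, CFB, C3AR1, SERPING1 and VSIG4 were lower in all 3. CFP stood at 2.80 CPM in D3 and at 2.40 and 2.74 CPM in R2 and R3. CFB stood at 7.63, 8.74 and 9.89 CPM, and VSIG4 at 19.0, 17.9 and 15.4 CPM. CFB and VSIG4 thus had many times more CPM here than in the libraries that hold transcripts.

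Per kb of gene span, the members stood between 0.093 and 2.43 times the median gene of at least 10 kb in R2 and R3. C1QA, C1QB, C1QC, CFB, CFP and C3AR1 are themselves shorter than 10 kb. The ratio to the median autosomal gene, or to the median X-linked gene for CFP and VSIG4, was 0.82 and 0.92 for SERPING1 and 1.09 and 1.03 for C1QB in R2 and R3. It was 0.61 and 0.71 for CFP and 2.15 and 2.43 for CFB. The lowest were C1QA, at 0.16 and 0.093 from 9 and 5 counts, and C5AR1, at 0.31 and 0.34. In D3 the ratio was 5.40 for SERPING1 and 3.52 for C1QA, the 2 highest among the members, 1.23 for C5AR1 and 0.41 for C3AR1, the lowest.

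**Figure D5:**
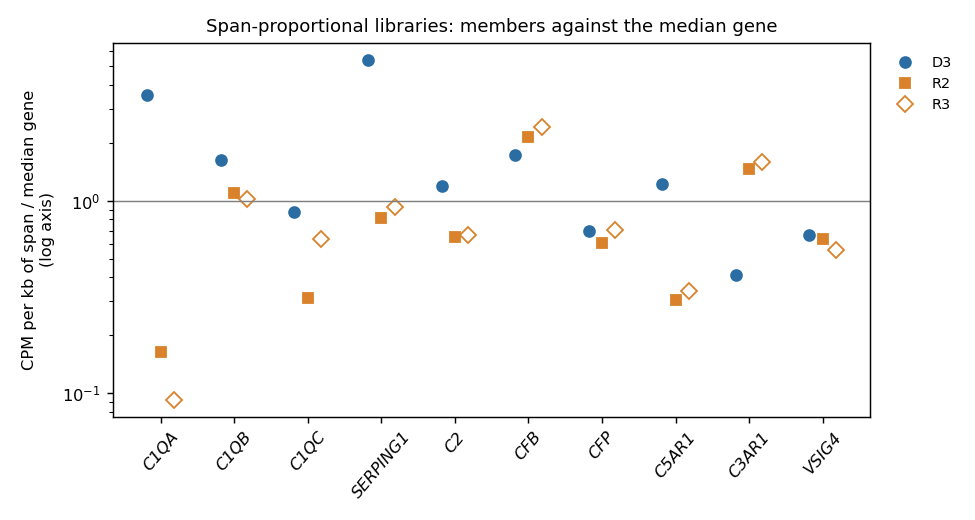
CPM per kb of gene span divided by that of the median gene of at least 10 kb (log axis, line at 1) for each complement gene in D3 (blue) and R2 and R3 (orange, filled and open). SERPING1 and C1QA stood at 5.40 and 3.52 in D3, while C1QA stood at 0.16 and 0.093 in the replacer-milk libraries.

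SERPING1, C1QA and C5AR1 had the largest ratios of D3 to the other 2 libraries among the members. SERPING1 had 58.8 CPM in D3 and 8.11 and 9.22 CPM in R2 and R3. C1QA had 7.75 CPM against 0.332 and 0.187 CPM, and C5AR1 had 12.6 CPM against 2.88 and 3.18 CPM. For these 3 genes D3 was higher than both replacer-milk libraries by at least 3.95-fold. C3AR1 went the opposite way, at 2.88 CPM against 9.36 and 10.3 CPM. C1QB had 8.51 against 5.20 and 4.91 CPM, C1QC 2.84 against 0.922 and 1.87 CPM, and C2 10.3 against 5.12 and 5.28 CPM. In all, 8 of the 10 were lower in both replacer-milk libraries and 2 (CFB and C3AR1) higher in both, where 56.8% and 38.1% of all genes were. With 1 control library and a replacer-milk pair that is nearly identical, no test was made within this kind.

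The C1q chains did not keep their proportions in these libraries. C1QA took 40.6% of the summed chain counts in D3 (95% Wilson interval 36.28 to 45.05) but 5.14% (2.73 to 9.48) and 2.69% (1.15 to 6.14) in R2 and R3. By gene span alone it would take 20.7%. C1QB took 44.6%, 80.6% and 70.4%, with 48.9% of the span.

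Over all 6 libraries, as the labels group them, no member was called either. Of 21431 genes tested in edgeR 0 passed (0% of genes, 123 with an unadjusted p below 0.05), and the members' adjusted p ran from 0.987 to 0.996. DESeq2 called 1 gene and limma voom 0, none of them a member. With library kind as a term the fit called 1 gene (0.00467%), not a member, and 3 of the 10 members had an unadjusted p below 0.05, where 12.2% of all genes did. These were C1QA (log2 fold change −2.95, SE 0.86, edgeR adjusted p = 0.376), C5AR1 (−1.26, SE 0.31, adjusted p = 0.357) and SERPING1 (−1.70, SE 0.67, adjusted p = 0.407). This fit also takes in D3, R2 and R3, whose counts follow gene span, so its fold changes do not measure transcripts alone. C1QA had 194 counts in D3 against 9 and 5 in R2 and R3. R2 and R3 were then summed as 1, a choice made after seeing the data. In that fit, still with library kind as a term, C1QA and C5AR1 kept an unadjusted edgeR p below 0.05 and SERPING1 did not. Of the 21905 genes tested there, 682 had such a p. After adjustment, C1QA, C5AR1 and SERPING1 each stood at 0.882 in edgeR.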

How the data were processed

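Total RNA from goat PBMC was isolated by the TRIzol method and sequenced from NEBNext Ultra II libraries, per the labels' protocols. The authors deposited 1 table of raw counts, with 0 rows that name no gene. Per the submitters' processing notes, reads went through bcl2fastq 2.19.0.316, fastp 0.22.0, STAR 2.7.10a and featureCounts 2.0.0, with FastQC 0.11.9 and MultiQC 1.12 also named. Genome build, annotation, parameters and strand setting were not given in those sources, so overlapping antisense genes cannot be separated.

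Columns were matched by sample description and groups by title. CPM are counts over the library total. Gene span came from the RefSeq table of ARS1.2, which matched 22964 symbols, and no coordinates are printed. Medians per kb used protein-coding genes of at least 10 kb. Libraries were called span-proportional above a Spearman correlation of 0.6. After filterByExpr and TMM scaling, edgeR 4.0.16 (R 4.3.3) was run with its quasi-likelihood test (robust dispersions), two-sided, replacer milk minus doe milk, at an adjusted p of 0.05. A standard error is the fold change on the log2 scale divided by the root of F. DESeq2 1.42.0, limma 3.58.1 (voom), other scalings and filters, a replicate block, library kind as a term and left-out libraries were alternatives. A left-out control leaves 1 library against 1, given as a difference of TMM-scaled log2 CPM with edgeR's prior count, not of plain CPM. The labels call the samples biological replicates without naming animals, so p-values measure the spread between these samples, which may be technical.

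The members and all gene lists were chosen with earlier results of these data known. Named genes are all 10 members and the 10 further complement genes with the smallest p, and any other gene given with values was chosen after its values were seen.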

Additional observations from a re-analysis of the deposited data

How the results depend on the processing

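No member of the 10 passed an adjusted p of 0.05 under any setting run, in the transcript-like libraries or over all 6. Not every setting tested all 10. With at least 1 CPM in every library, C2, CFB, C3AR1 and VSIG4 were not tested in the transcript-like libraries, and only 4 members were tested over all 6. DESeq2 gave no adjusted p for C2 in either, nor for CFB in the transcript-like libraries. Of 85 recomputed member values in the transcript-like libraries, 83 kept their direction. Most of the 85 used the same libraries with another scaling, filter or package, so they are not independent checks of direction. The 2 exceptions came without D2, where on the TMM scale CFP turned to −0.099 and SERPING1 to 0.61. Without D1 they were 0.20 and −1.45. The count of members below both doe-milk libraries was 6, or 7 with TMM or RLE scaling, 6 with upper quartile scaling and 7 against either doe-milk library alone. The number of genes called in the transcript-like libraries was 3 (LOC102181554 and LOC102186914 lower, LOC108637289 higher, named after their values were seen). It was 5 with RLE size factors and 5 with upper quartile scaling, 90 with no filter, 0 with at least 1 CPM in every library, 148 with DESeq2, 0 with limma voom and 1 with dispersions not robust. The cause was not tested. Over all 6 libraries the count was 0, and 1 with DESeq2 (TNNC2) or with library kind as a term (LOC108637881). It was 0 with each library left out in turn and with R2 and R3 summed. The replicate block also gave 0. Deviations of same-numbered libraries correlated at 0.907, −0.899 and 0.920, the middle pair being of different kinds. The differently numbered D2 and R1, of the same kind, correlated at 0.902. The correlations followed library kind, so they cannot tell whether same-numbered libraries pair. C2 has no value without D1, since it did not pass the filter there. Depth limits C2 and CFB, at 6 to 15 counts in the transcript-like libraries.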

Other observations

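Of the 39 further complement genes, 18 stayed under 1 CPM in all 3 transcript-like libraries, among them C5, C6, C8A, C8B and C9 of the membrane attack pathway, MBL2 and CRP. C7, of the same pathway, stood at 5.51, 8.20 and 7.55 CPM in D1, D2 and R1, and CPB2, a carboxypeptidase that inactivates C3a and C5a, at 23.2, 32.1 and 33.0 CPM. MBL2 and CRP had 0 counts in each, which allows up to 0.0624, 0.0524 and 0.0578 CPM in D1, D2 and R1 (3 counts). C5 stood at 0.853, 0.350 and 0.308 CPM in D1, D2 and R1, and at 88.8, 39.1 and 37.8 CPM in D3, R2 and R3. C3, which blood cells also make, had 97.1 and 144 CPM in doe milk and 169 CPM in replacer milk in the transcript-like libraries, with the controls further apart than the nearer control was from replacer milk. The complement receptor subunits ITGAM, ITGAX and ITGB2 stood at 41.6, 75.5 and 419 CPM in D1, at 106, 106 and 546 CPM in D2, and at 70.4, 75.5 and 501 CPM in R1. For ITGAM and ITGB2 replacer milk lay between the controls, and for ITGAX it lay level with D1. The genes of this paragraph were picked with their values known.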
